A study of Mus musculus with 3 samples.

Results

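The IFIT genes Ifit1, Ifit2, Ifit3 and Ifit3b encode interferon-induced proteins with tetratricopeptide repeats. The 4 members were taken by their symbols from the 32285 genes of the deposited matrices and were followed across retinal cell classes and ages. The retinas came from C57BL/6JRj mice of 3 ages, young (3 months), adult (12 months) and old (23 months), and were dissociated into single cells, of which those with the endothelial surface protein CD31 were enriched on an autoMACS magnetic separator, so the shares of cell classes are not those of the retina. The enriched cells were profiled by droplet scRNA-seq with the 10x Genomics v3.1 kit, which counts transcripts by unique molecular identifiers (UMIs). Each age was 1 library, made from 4 pooled retinas of 2 animals, with no treatment or genetic change named for any age. No comparison between ages therefore has a replicate, no test was possible, and every interval below covers counting error only.

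Cells make IFIT proteins when type I interferon, or an RNA sensor acting through IRF3, switches on their genes. Interferon binds the receptor chains Ifnar1 and Ifnar2, the kinases Jak1 and Tyk2 start the assembly of the factor ISGF3, which holds Stat2 and Irf9 and binds the interferon-stimulated response element in the promoters of interferon-stimulated genes (ISGs). Ifit1 binds messenger RNA whose cap lacks the methyl marks of the cell's own transcripts and holds back its translation. Ifit2 binds RNA too, and Ifit3 is a partner that forms complexes with other IFIT proteins. Ifit3b is a close relative of Ifit3 in the mouse.

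The 4 genes lie side by side on the plus strand of chromosome 19 (GRCm38). Ifit2 (ENSMUSG00000045932) spans positions 34550694 to 34576419, and Ifit3 (ENSMUSG00000074896) spans 34583531 to 34588731. Ifit3b (ENSMUSG00000062488) spans 34607970 to 34613401, and Ifit1 (ENSMUSG00000034459) spans 34640871 to 34650009. Ifit1bl1 and Ifit1bl2, relatives of Ifit1, lie among them on the minus strand.

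The promoter stretches below are shown because the members are known as targets of ISGF3 and because they differ in whether letters of the element that it binds occur. They are plus-strand sequence from RefSeq on GRCm38.p6, upstream of the start of each gene. Capitals mark matches to a motif of 10 bases, GAAA followed by any 2 bases and again GAAA, searched on both strands. On the strand shown all matches read TTTC, 2 bases and TTTC, and none overlaps another. The stretches are chr19:34640755-34640843 for Ifit1, chr19:34583343-34583446 for Ifit3, chr19:34607739-34607842 for Ifit3b and chr19:34550544-34550643 for Ifit2.
Ifit1: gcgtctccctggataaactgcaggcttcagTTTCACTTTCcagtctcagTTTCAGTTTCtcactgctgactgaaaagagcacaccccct
Ifit3: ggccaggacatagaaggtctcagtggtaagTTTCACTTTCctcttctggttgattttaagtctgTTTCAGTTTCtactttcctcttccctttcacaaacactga
Ifit3b: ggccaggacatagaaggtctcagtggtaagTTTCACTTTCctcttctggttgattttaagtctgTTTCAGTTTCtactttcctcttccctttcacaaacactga
Ifit2: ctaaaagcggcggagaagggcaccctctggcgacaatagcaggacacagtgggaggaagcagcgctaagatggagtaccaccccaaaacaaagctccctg

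The Ifit1, Ifit3 and Ifit3b promoters each held 2 matches, with the letters TTTCACTTTC and then TTTCAGTTTC. In Ifit1 the first bases of these matches lay 104 and 85 bases before the start, 19 bases apart. In Ifit3 they lay 156 and 122 bases before the start and in Ifit3b 188 and 154, 34 bases apart in both. The stretches printed for Ifit3 and Ifit3b were identical, within a run of 169 identical bases that their windows shared. Neither of the 2 windows of Ifit2, each running from 250 bases before a start to 50 after it, held a match, which says only that these letters were not there. A match was found in 1131 of 32851 promoter windows of the mouse genome (3.44%), and 2 or more in 74 (0.225%). Counted by gene, it was found in 1079 of 27025 genes (3.99%) and in 13 of 32 other ISGs with a window (40.6%). A match is a description of the letters and does not show that a factor binds there.

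The libraries held 2491 young, 3243 adult and 2751 old barcodes with 16577026, 19977238 and 17021820 UMIs. Once cells outside the limits on genes and mitochondrial UMIs and the called doublets were set aside, 1705, 1957 and 1701 cells remained. Barcodes shared between libraries numbered 0 to 3 a pair. Cells were clustered without interferon genes, and classes were named from marker genes. A class was compared where each library held at least 30 of its cells, which left endothelial cells, droplets with both endothelial and pericyte markers (called mixed), Müller glia, pericytes, smooth muscle, bipolar cells, rods and cones.

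The endothelial label was borne out by its markers. There were 503 young, 504 adult and 495 old endothelial cells, with medians of 5316, 5264 and 6593 UMIs. The tight-junction gene Cldn5 had a UMI in 98.4, 98.2 and 98.8% of them and the VEGF receptor gene Flt1 in 99.6% at each age. Of markers of other cells, the summed level of the 9 pericyte genes was 1968, 2089 and 1412 UMIs per 1000000 UMIs of the class (CPM) at the 3 ages in turn, and that of the 8 Müller genes was 1142, 1371 and 1623 CPM, with no gene of either list at 0. The 8 rod genes summed to 73.7, 167 and 168 CPM and the 5 erythroid genes to 534, 195 and 1296 CPM, also with none at 0. The 8 microglial genes summed to 40.0, 40.8 and 38.7 CPM, and the 4 T cell genes were all at 0. What part these other cells had in the values below was not tested, except where a setting that left them out is named.

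Endothelial cells carried the most IFIT transcripts of the named classes at every age, though in the old library mixed droplets lay close to them. Endothelial cells of the old library carried about double the level of the young. The summed level of the 4 genes was 356 CPM in young endothelial cells (95% Poisson interval 336 to 377, 1203 UMIs). Adult endothelial cells had 409.9 CPM (389 to 431, 1455 UMIs) and old ones 741 CPM (714 to 768, 2910 UMIs). The old-to-young ratio was 2.08 (95% exact conditional interval 1.94 to 2.23), the adult-to-young ratio 1.15 (1.07 to 1.24) and the old-to-adult ratio 1.81 (1.70 to 1.93). Most of the difference between the youngest and oldest libraries therefore lay between the adult and the old one. With cells that carried markers of other classes left out, the old-to-young ratio was 1.97.

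The other vascular droplets followed at a similar or lower level. Mixed droplets had 309, 301 and 700.5 CPM in the young, adult and old library. Endothelial cells exceeded them by a factor of 1.15 (1.07 to 1.247) in the young library and 1.06 (1.001 to 1.12) in the old. These intervals take UMIs as independent, yet over old endothelial cells the variance of IFIT UMIs a cell was 15.9 times their mean. The narrow margin in the old library is therefore not read as a separation. Pericytes, which wrap the capillaries, had 96.1 (68 UMIs), 71.2 (39 UMIs) and 141 CPM (71 UMIs). Smooth muscle had 6.50, 76.1 and 30.6 CPM, from 2, 24 and 11 UMIs in 37 or 38 cells a library. These few counts do not fix the place of smooth muscle, which sat above pericytes in the adult library by a factor of 1.07 (0.616 to 1.82).

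Among neural cells, Müller glia stood out and photoreceptors were close to empty. Müller glia, the radial support cells of the retina, had 175 CPM in the young library (155 to 197, 266 UMIs), 197 in the adult (177 to 218, 368 UMIs) and 240.2 in the old (216 to 266, 363 UMIs). Bipolar cells, the interneurons behind the photoreceptors, had 22.2, 18.4 and 34.5 CPM from 29, 26 and 38 UMIs. Rods had 4.21, 3.07 and 5.15 CPM from 2, 3 and 3 UMIs. Cones had 0, 1 and 1 UMIs, where the level of 3 counts in the young library would be 6.1 CPM. The order endothelial, mixed, Müller, pericyte held in every library with counting intervals of each neighbouring ratio above 1, except that in the adult library smooth muscle came before pericytes. The step from mixed droplets to endothelial cells in the old library was narrow and is not read as a separation. Bipolar cells and smooth muscle were not separated in the young or old library, nor rods and cones in any.

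**Figure D1:**
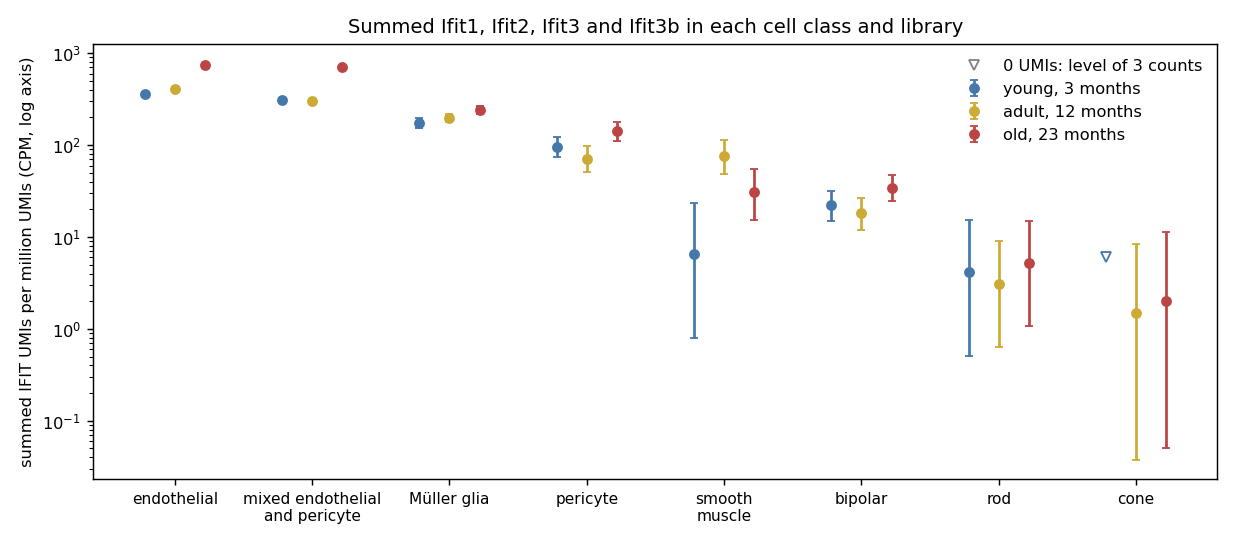
Summed CPM of Ifit1, Ifit2, Ifit3 and Ifit3b on a log axis in 8 cell classes, with a point for each library (young, adult, old) and 95% Poisson intervals as bars. The open triangle marks the level of 3 counts for young cones, which had 0 UMIs. Endothelial cells and mixed droplets reach 741 and 700.5 CPM in the old library, while rods and cones stay near 5 CPM or below.

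In droplet data, free RNA adds the genes of its source to every droplet, all at 1 ratio to their level in that source, so the IFIT genes were set beside endothelial markers. In Müller glia the 10 endothelial markers were at 3.96, 3.55 and 3.67% of their endothelial level in the young, adult and old library, whereas the summed IFIT genes were at 49.1, 48.0 and 32.4% of theirs. The IFIT share was thus 12.4, 13.5 and 8.85 times the marker share. In pericytes the IFIT share was 27.0, 17.4 and 19.1% and the marker share 6.05, 6.0 and 7.98%. In rods it was 1.18, 0.750 and 0.695%, from 2 or 3 UMIs, against marker shares of 0.269, 0.216 and 0.648%.

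Of the members, Ifit1 was the most counted in endothelial cells at each age, and it differed more than the other members between endothelial cells and Müller glia. Each UMI is taken from the 3′ end of a transcript and does not depend on its length, but capture can differ between genes, so levels are set beside each other on this scale only. The Ifit1 levels of young, adult and old endothelial cells were 159.5 (146 to 174), 189 (175 to 204) and 311 CPM (294 to 329). In Müller glia it was at 26.3, 33.7 and 45.7 CPM, and in pericytes at 24.0, 23.7 and 37.8 CPM, which did not separate from Müller glia. Mixed droplets had 134, 131 and 252 CPM, which was 5.10 times the Müller level (3.70 to 7.21) in the young library and 5.53 times (4.32 to 7.17) in the old. Rods had 0 UMIs of Ifit1 at every age.

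Ifit3 was spread more evenly, with Müller glia close to young and adult endothelium. Endothelial cells of the 3 ages in turn held 104 (93.9 to 116), 119 (108 to 130) and 257 CPM (241 to 273). Müller glia had 93.4 CPM (78.7 to 110.1), 106 (91.6 to 122) and 120.4 (104 to 139). The endothelial-to-Müller ratio of Ifit3 was 1.12 (0.918 to 1.37) in the young and 1.12 (0.944 to 1.33) in the adult library, where the intervals include 1, and 2.13 (1.82 to 2.51) in the old library. Mixed droplets had 92.2, 96.5 and 272 CPM, and pericytes 32.5, 21.9 and 43.8 CPM.

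Ifit3b, the least counted member in endothelial cells of the young and adult libraries, was spread over endothelium and glia much as Ifit3 was. It was at 35.5 (29.4 to 42.5), 41.1 (34.7 to 48.4) and 93.4 CPM (84.1 to 103) in endothelial cells and at 38.1, 42.8 and 58.2 CPM in Müller glia. Müller glia ranked first for Ifit3b in the young and adult libraries without separating from the next class, by factors of 1.06 (0.774 to 1.45) and 1.04 (0.781 to 1.37). Ifit3b made up 25.4, 25.7 and 26.7% of the Ifit3 and Ifit3b UMIs of endothelial cells and 29.0, 28.8 and 32.6% of those of Müller glia. Ifit3 and Ifit3b may share reads, because 27 of the 411 stretches of 90 bases in the last 500 bases of Ifit3 also occur in Ifit3b, whereas no such stretch of Ifit3b occurs in another gene. How such reads were counted is not given in the sources used here.

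Ifit2 stayed at 81.9 CPM or below in every class compared, and of the members its endothelial levels lay closest together across the ages. It was at 56.5 (48.8 to 65.1), 61.4 (53.5 to 70.1) and 79.2 CPM (70.6 to 88.5) in endothelial cells, at 46.3, 40.0 and 81.9 in mixed droplets, at 17.1, 14.4 and 15.9 in Müller glia and at 24.0, 14.6 and 37.8 in pericytes. Pericytes lay above Müller glia for Ifit2 in the old library by a factor of 2.38 (1.23 to 4.54), an order that no other member had in that library. Bipolar cells had 13.8, 4.94 and 14.5 CPM from 18, 7 and 16 UMIs, so Ifit2 made up most of their young IFIT UMIs.

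The makeup of the IFIT signal thus differed between endothelium and glia. Ifit1 made up 44.8, 46.05 and 42% of the IFIT UMIs of young, adult and old endothelial cells but 15.0, 17.1 and 19.0% of those of Müller glia, where Ifit3 made up 53.4, 53.8 and 50.1%. There were 1.53 (1.33 to 1.75), 1.59 (1.41 to 1.80) and 1.21 (1.11 to 1.32) Ifit1 UMIs for each Ifit3 UMI in endothelial cells. In Müller glia there were 0.282 (0.193 to 0.403), 0.318 (0.236 to 0.424) and 0.379 (0.283 to 0.503). The intervals of the classes did not overlap in any library. In old endothelial cells the ratio lay below that of both other ages.

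**Figure D2:**
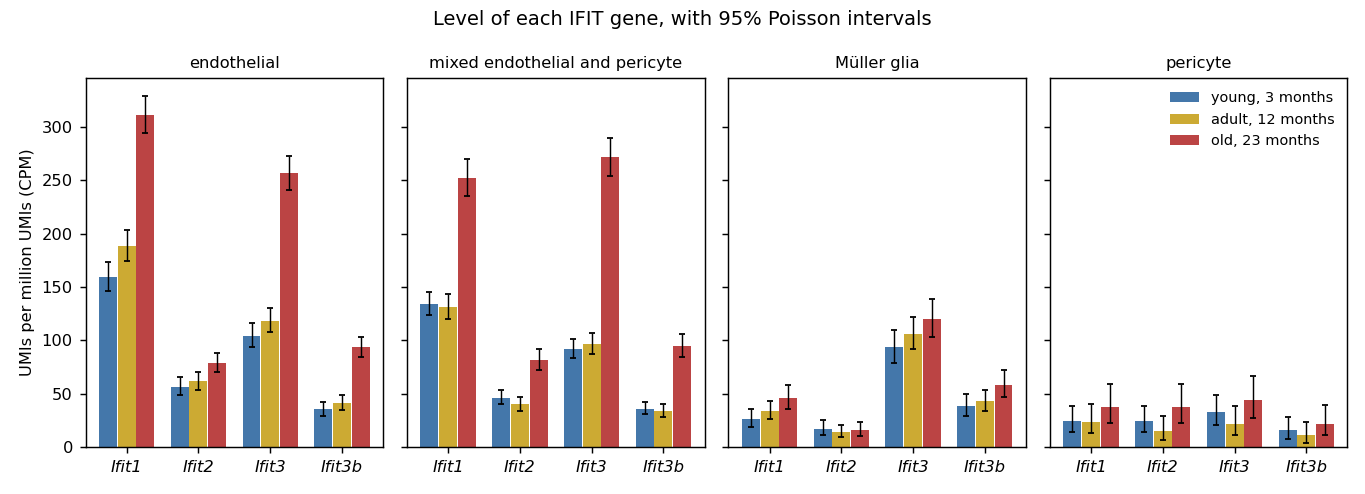
CPM of each of the 4 genes in endothelial cells, mixed droplets, Müller glia and pericytes, with a bar for each library and 95% Poisson intervals. Ifit1 and Ifit3 reach 311 and 257 CPM in old endothelial cells, while Ifit3 leads at each age in Müller glia (93.4, 106 and 120.4 CPM).

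The comparison of ages asked which members differed with age and in which cells. A member was counted as past the fold at a ratio of at least 1.5, or at most the inverse, among genes with at least 30 UMIs in the pair of libraries. In endothelial cells, 3 of the 4 members passed the fold upward from young to old, where 5.99% of the 10069 genes with enough counts did so. Ifit3b had an old-to-young ratio of 2.63 (2.14 to 3.26, 120 young and 367 old UMIs), Ifit3 of 2.46 (2.18 to 2.78, 353 and 1009 UMIs) and Ifit1 of 1.95 (1.76 to 2.16, 539 and 1223 UMIs). Ifit2, the member without a motif match in its promoter windows, did not pass, at 1.40 (1.17 to 1.69, 191 and 311 UMIs), though it passed a fold 25% above 1, and whether the letters bear on this was not tested. Among all 10069 genes these ratios stood at the 99.2, 99.0, 97.9 and 91.6 percentile. Over 11 other settings the ratio of Ifit2 ran from 1.22 to 1.60 and reached the fold in 2 of them, at 1.60 with mixed droplets counted as endothelial and at 1.51 with the rod level subtracted. The ratios of Ifit1, Ifit3 and Ifit3b were past the fold in all 11.

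From young to adult none of the 4 members passed the fold in endothelial cells, where 4.13% of genes did. The ratios were 1.18 (1.05 to 1.33) for Ifit1, 1.09 (0.891 to 1.33) for Ifit2, 1.14 (0.983 to 1.31) for Ifit3 and 1.16 (0.903 to 1.49) for Ifit3b, so that of Ifit1 alone had an interval above 1. From adult to old 3 of 4 passed, against 3.83% of genes, with 1.65 for Ifit1, 1.29 for Ifit2, 2.17 for Ifit3 and 2.27 for Ifit3b. These comparisons share libraries and are not independent of each other.

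Mixed droplets, which are other barcodes of the same libraries, had all 4 members past the fold from young to old, where 4.48% of genes passed. The ratios were 1.88 (1.69 to 2.09) for Ifit1, 1.77 (1.47 to 2.13) for Ifit2, 2.95 (2.62 to 3.32) for Ifit3 and 2.64 (2.18 to 3.21) for Ifit3b. One old mixed droplet alone held 365 IFIT UMIs of 2352. Without the 5 droplets with most IFIT UMIs in each library, the ratio of the summed genes was 2.32, against 2.27 with them. From young to adult none of the 4 passed in mixed droplets, where 3.48% of genes did, and the summed ratio was 0.977 (0.903 to 1.06), or 1.14 (1.04 to 1.24) without the 5 droplets. From adult to old all 4 passed, where 3.4% of genes did.

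In Müller glia the difference with age was smaller and did not hold under every setting. Ifit1 and Ifit3b passed the fold from young to old, at 1.74 (1.16 to 2.63) and 1.53 (1.08 to 2.16), where 7.11% of genes did, Ifit3 was at 1.29 (1.03 to 1.62) and Ifit2 at 0.929 (0.510 to 1.68). From young to adult and from adult to old no member passed in Müller glia, where 6.21% and 5.64% of genes did. The summed old-to-young ratio was 1.37 (1.17 to 1.61), but 0.934 (0.652 to 1.34) in a random draw of 2000 UMIs a cell and 1.19 as the expectation over all such draws. In pericytes the summed ratio was 1.47 (1.04 to 2.08), with 2 of the 3 members with enough counts past the fold where 10.4% of genes were. These were Ifit1 and Ifit2, each at 1.57 (0.775 to 3.22) from 17 young and 19 old UMIs, with intervals that include 1. The summed ratio fell to 0.591 with cells placed by their own markers and was 0.995 expected over draws of 2000 UMIs. It rose to 2.25 without the 5 cells with most IFIT UMIs in each library. Bipolar cells had a summed ratio of 1.55 (0.932 to 2.61).

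Within the endothelial class both of the large clusters had more IFIT UMIs in the old library. Cluster 0 (920 cells), led by genes such as Gatm, Car4 and Slc38a5, had 350.3, 376 and 789.8 CPM of summed IFIT genes and an old-to-young ratio of 2.25 (2.07 to 2.46). Cluster 3 (439 cells), in which 7 arterial genes reached 1772 CPM against 225 in cluster 0, had 365, 472 and 711 CPM and a ratio of 1.95 (1.74 to 2.19). The adult-to-young ratio was 1.29 (1.14 to 1.47) in cluster 3 and 1.07 (0.971 to 1.19) in cluster 0, with intervals that overlap. The last endothelial cluster, of 143 cells, led by Gm26917, Neat1 and Lars2 and with medians of 2942, 2706 and 2697 UMIs, had 372, 442 and 347 CPM from 52, 49 and 58 UMIs. Its ratio was 0.933 (0.630 to 1.38), and in the old library it lay below cluster 0 by a ratio of 0.439 (0.332 to 0.571). Without that cluster, the endothelial old-to-young ratio was 2.13.

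To compare shares of cells at 1 depth, each cell was thinned to 2000 UMIs, which left out 41 young, 68 adult and 38 old endothelial cells. Of the rest, 165 of 462 young (35.7%, 95% Clopper-Pearson interval 31.3 to 40.3), 163 of 436 adult (37.4%, 32.8 to 42.1) and 241 of 457 old endothelial cells (52.7%, 48.0 to 57.4) had an IFIT UMI. With all UMIs the shares were 57.3, 54.2 and 72.5%. Rods were taken as a class without these transcripts, which was not tested. Their shares were 0.962, 0.465 and 0.725% after thinning and 0.613, 0.968 and 1.32% with all UMIs, at medians of 2299, 2470 and 2153 UMIs a cell. In Müller glia the thinned shares were 28.7, 21.7 and 23.4%, which run against the order of the CPM, so no order is read from them. In mixed droplets they were 33.0, 35.5 and 48.4%.

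The share of endothelial cells with an IFIT UMI and the UMIs in those cells were both higher in the old library. Both rise with the mean level at such low counts, and a cell at 0 is not shown to lack the transcripts. A thinned young endothelial cell held 0.697 IFIT UMIs on average (0.623 to 0.777), an adult cell 0.835 (0.751 to 0.925) and an old cell 1.39 (1.28 to 1.497). Cells with at least 1 IFIT UMI held 1.95, 2.23 and 2.63 of them on average. Cells with 5 or more made up 1.95% of the young (9 cells), 2.98% of the adult (13 cells) and 7.66% of the old endothelial cells (35 cells), and the highest cells held 9, 12 and 25. Of the difference of 0.688 UMIs a cell between old and young, 51.7% lay in cells with 5 or more, 37.2% in cells with 3 or 4 and 11.1% in cells with 1 or 2. The tenth of cells with most IFIT UMIs held 53.1, 56.3 and 42.8% of them at this depth and 53.5, 54.4 and 48.9% with all UMIs, a share that also depends on how many cells are at 0.

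**Figure D3:**
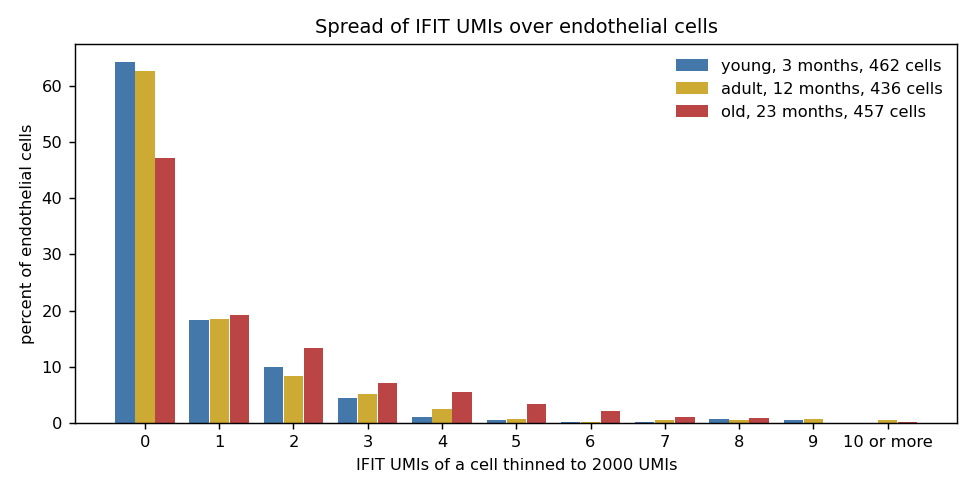
Percent of endothelial cells (vertical axis) by the number of IFIT UMIs in the cell after thinning to 2000 UMIs (horizontal axis), with a bar for each library and no error bars. Cells at 0 make up 64.3, 62.6 and 47.3% of the young, adult and old library, and the old library has the tallest bars from 1 to 6.

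Members were detected together in the same endothelial cells at every age. After thinning, 55 young (11.9%, 9.10 to 15.2), 53 adult (12.2%, 9.24 to 15.6) and 120 old cells (26.3%, 22.3 to 30.5) had UMIs of 2 or more members. As an expectation over all draws of 2000 UMIs these shares were 11.4, 15.0 and 25.5%. Exactly 3 members were found in 8, 11 and 41 cells, and all 4 in 3, 4 and 6 cells.

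For all 6 pairs of members, at 2000 UMIs a cell, the second gene was detected in a larger share of the cells with the first than of those without it. Ifit3 was detected in 31.9% of young cells with Ifit1 (22.5 to 42.5) and in 9.70% of those without it (6.89 to 13.2). In adult cells it was found in 33.7% (24.4 to 43.9) against 10.1% (7.07 to 13.8), and in old cells in 50.9% (43.1 to 58.7) against 17.2% (13.1 to 22.1). At this depth the intervals with and without Ifit1 did not overlap in any library. At 1000 UMIs a cell they overlapped in the old library, at 26.3% (17.9 to 36.1) against 15.5% (12.1 to 19.6). At that depth 2 pairs also turned in the young library, with Ifit3b in 3.33% of cells with Ifit1 against 3.89% without it and in 3.45% of cells with Ifit2 against 3.85%, from few cells and with intervals that overlap. The pair of Ifit1 and Ifit2 was the loosest in the young library, where Ifit2 was in 13.2% of cells with Ifit1 (7.0 to 21.9) and 9.70% of those without (6.89 to 13.2). In old cells it was in 19.2% against 7.93%. Ifit3b was detected in 17.0% (young), 19.4% (adult) and 25.2% (old) of cells with Ifit3, against 4.79, 3.52 and 7.14% of those without. The part of reads that Ifit3 and Ifit3b may share in this pair was not tested. Cells of 1 library share their preparation and are not replicates, so these are descriptions of 3 libraries.

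**Figure D4:**
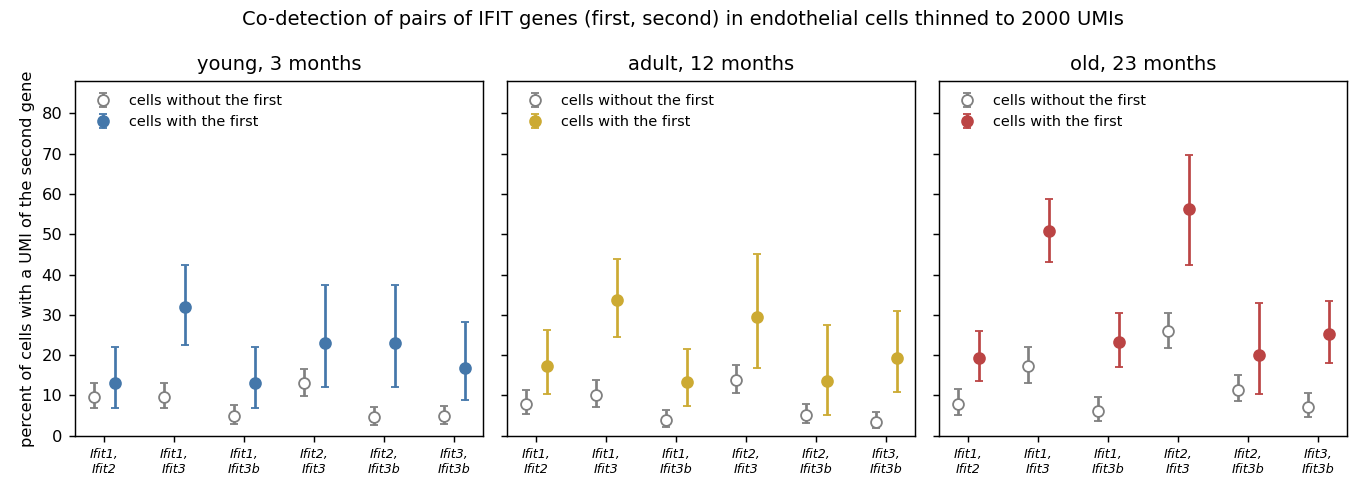
Percent of endothelial cells thinned to 2000 UMIs that had a UMI of the second gene of a pair, among cells with the first gene (filled points) and without it (open points), with 95% Clopper-Pearson intervals, in 1 panel for each library. Filled points lie above open ones for all 6 pairs in each panel, with intervals that overlap for some pairs in each. For Ifit1 and Ifit3 the filled points are at 31.9, 33.7 and 50.9%.

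Other ISGs were higher in cells with more IFIT UMIs, and some marker lists also moved with that count. Isg15, a ubiquitin-like protein that is attached to other proteins, went from 0.370 UMIs a cell in young cells with 0 IFIT UMIs to 0.939, 1.72 and 2.56 in those with 1 or 2, 3 or 4 and 5 or more. In adult cells it went from 0.425 to 1.16, 2.27 and 3.85, and in old cells from 0.495 to 1.57, 2.91 and 4.69. The 40 other ISGs of the list in the matrices, Isg15 among them, summed to 8.60, 12.2, 16.5 and 20 UMIs in the same bins of young cells and to 12.6, 18.9, 26.5 and 34.0 in old cells. They were higher in old than in young cells in each bin, that of no IFIT UMI included. The 10 endothelial markers lay between 36.7 and 42.4 UMIs in all bins and libraries, and in old cells went from 39.8 (38.99 to 40.68) in the bin of 0 to 42.4 (40.71 to 44.11) in that of 3 or 4, intervals that do not overlap. Other marker lists moved with the bins in each library, in directions that differed between libraries. In old cells, from the bin of 0 to that of 5 or more IFIT UMIs, the 6 venous genes went from 0.921 (0.798 to 1.06) to 1.66 UMIs a cell (1.26 to 2.14), the 6 capillary genes from 18.1 (17.5 to 18.7) to 15.5 (14.2 to 16.8) and the 9 pericyte genes from 3.5 (3.26 to 3.76) to 2.6 (2.09 to 3.19). In young cells the capillary genes went the other way, from 20.5 (19.99 to 21.02) to 24.6 (21.4 to 28.0) in the 9 cells of the top bin, and so did the pericyte genes, from 3.64 (3.43 to 3.87) to 5.44 (4.03 to 7.20). In adult cells the 7 arterial genes went from 1.27 (1.14 to 1.42) to 2.38 (1.62 to 3.38) in the 13 cells of the top bin and the pericyte genes from 4.42 (4.18 to 4.68) to 2.46 (1.68 to 3.47), while the venous genes went from 0.879 (0.771 to 0.998) to 0.385 (0.125 to 0.898), with overlapping intervals. The arterial genes of young cells went from 1.2 (1.08 to 1.33) to 0.333 (0.0687 to 0.974). The 12 genes of the dissociation response were lower in the top bin of young cells, at 17.8 (15.1 to 20.8) against 22.6 (22.1 to 23.2) in the bin of 0, and of adult cells, at 17.3 (15.1 to 19.7) against 22.01 (21.5 to 22.6). In old cells they stood at 22.8 (22.2 to 23.5) in the bin of 0, at 18.9 (17.8 to 20.04) in that of 3 or 4 and at 21.5 (20.03 to 23.1) in the top bin. The part of these lists in the ISG values was not tested.

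Irf7, a transcription factor that drives interferon genes and is itself interferon-induced, was most clearly ordered by the IFIT count in the old library. It was at 0.440 (0.356 to 0.538), 0.745 (0.613 to 0.897), 1.12 (0.865 to 1.43) and 1.26 (0.913 to 1.69) UMIs a cell in the bins of old cells. In young cells it was at 0.249, 0.252, 0.320 and 0.556, with intervals that overlap throughout. In adult cells it was at 0.205 (0.155 to 0.266), 0.274, 0.576 (0.347 to 0.899) and 0.385, with 13 cells in the highest bin. Whether this dependence differed between libraries was not tested.

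**Figure D5:**
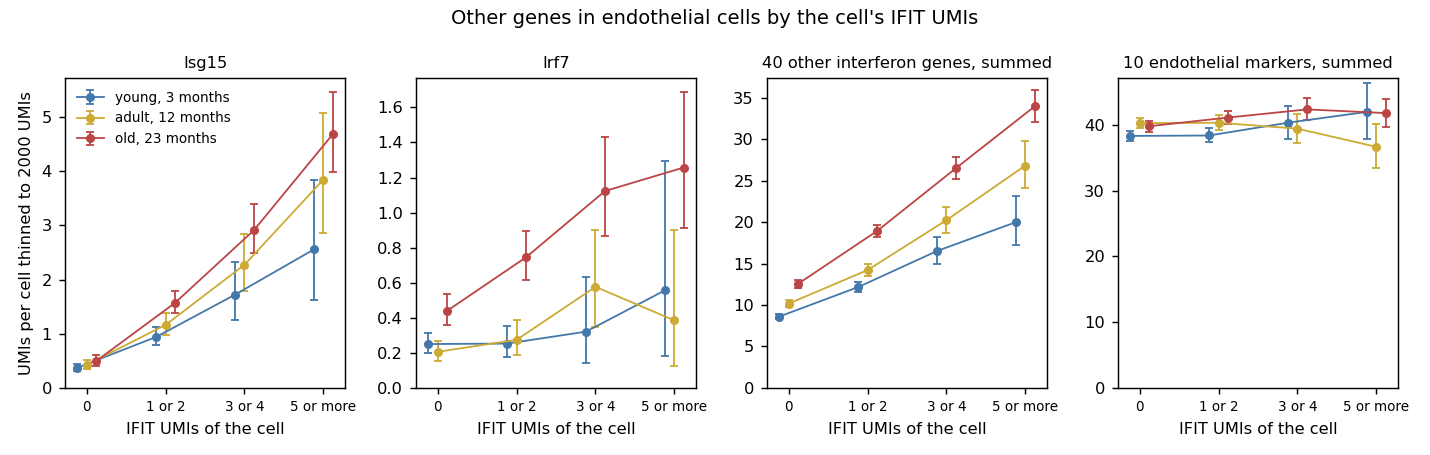
UMIs a cell (vertical axes, each from 0) of Isg15, Irf7, 40 other ISGs summed and 10 endothelial markers summed, in endothelial cells thinned to 2000 UMIs and binned by their IFIT UMIs (horizontal axes), with a line for each library and 95% Poisson intervals. Isg15 climbs from 0.370 to 2.56 in young and from 0.495 to 4.69 in old cells, while the endothelial markers stay between 36.7 and 42.4.

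The rest of the interferon pathway was then followed in endothelial cells from the ligands down. Interferons themselves were not measurable: of 18 type I genes only Ifnk had a UMI, 1 in the young library, and the type II and III genes Ifng, Ifnl2 and Ifnl3 had none. This depth does not show their absence, since 3 counts would be a level of 0.764 to 0.888 CPM in a library. Of 8 receptor and kinase genes with enough counts, none passed the fold in either direction and 4 had an old-to-young ratio above 1, where 5.99% of all genes passed upward, 4.09% downward and 5471 of 10069 lay above 1. Ifnar1 was at 0.936 (0.845 to 1.04), Ifnar2 at 0.994 (0.913 to 1.08), Jak1 at 1.01 (0.864 to 1.17) and Tyk2 at 1.08 (0.710 to 1.65).

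Among the signalling factors, Irf7 passed the fold upward with a ratio of 2.86 (2.56 to 3.20, from 122 to 348 CPM) and Stat2 with 1.55 (1.27 to 1.89), while Irf9 was at 1.31 (1.11 to 1.54). Irf1, Irf2 and Irf3 were at 0.985, 1.01 and 1.02. Stat2 and Irf9 thus had intervals above 1, with Irf9 short of the fold, and Irf1, Irf2 and Irf3 lay close to 1.

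Of 7 RNA sensors and their adaptor, 2 passed upward and 1 downward, where 5.99% and 4.09% of all genes did. Zbp1, a sensor of left-handed nucleic acid, was at 3.78 (2.43 to 6.101, 25 and 110 UMIs) and Dhx58 at 1.56 (1.01 to 2.47, 33 and 60 UMIs). Ifih1, which encodes the RNA sensor MDA5, was just short at 1.49 (1.27 to 1.76). Ddx58, which encodes RIG-I, was at 1.05 (0.864 to 1.27) and Tlr3 at 0.896 (0.641 to 1.252). Mavs, the adaptor of RIG-I and MDA5, was at 0.566 (0.327 to 0.962) from 38 and 25 UMIs. Eif2ak2, the kinase that halts translation on double-stranded RNA, was at 1.34 (1.12 to 1.62).

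Some genes that dampen the pathway were higher too, while none of the known partners of IFIT proteins in translation reached the fold. Of 5 negative regulators 2 passed the fold upward, against 5.99% of all genes. These were Usp18, which removes Isg15 from proteins, at 1.62 (1.32 to 2.003) and Socs3 at 1.56 (1.36 to 1.79). None of 6 translation factors passed, with ratios of 1.04 for Eif3c to 1.15 for Eif3e, Eif4e and Eif4g1. Both cap methyltransferase genes with enough counts, Cmtr1 and Rnmt, were at 1.02. The relatives at the IFIT locus were near empty, with 0 UMIs of Ifit1bl1 in all endothelial cells and 3, 1 and 6 of Ifit1bl2.

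Of the 37 other ISGs with enough counts, 25 passed the fold upward from young to old and none downward, where 5.99% and 4.09% of all genes did. All 37 had a ratio above 1, with a median log2 ratio of 0.76, beside 1.13 for the 4 members and 0.03 for all 10069 genes. The highest were Oas2, which makes the activator of RNase L, at 4.93 (3.12 to 8.14, 22 and 126 UMIs), Ifi27l2a at 4.31 (3.87 to 4.81) and Ifi44 at 2.70 (2.28 to 3.21). Isg15 was at 2.22 (2.07 to 2.38). The lowest were Trim25 at 1.04 (0.877 to 1.23), Tor3a at 1.08 (0.831 to 1.42) and Parp14 at 1.13 (0.966 to 1.32). From young to adult 2 of 37 passed upward and none downward, where 4.13% and 2.72% of genes did. From adult to old 14 of 38 passed upward and 1 downward, against 3.83% and 3.79%.

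Genes that respond to tissue dissociation also differed between the young and old libraries. Of 12 such genes 3 passed the fold downward, where 4.09% of all genes did. They were the heat-shock genes Hspa1b at 0.321 (0.284 to 0.361) and Hspa1a at 0.604 (0.558 to 0.652) and the immediate early gene Fosb at 0.527 (0.497 to 0.558). The highest were Ier3 at 1.39 (1.30 to 1.49), Dusp1 at 1.30 (1.22 to 1.39) and Atf3 at 1.20 (1.03 to 1.40). Their part in the IFIT values was not tested.

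The genes most like the IFIT sum across single endothelial cells were ISGs for the most part. Pearson's r of log counts over cells thinned to 2000 UMIs was averaged over the 3 libraries for 2572 genes with a UMI in at least 10% of the cells of each library. Isg15 led with 0.503 (0.408, 0.501 and 0.599 in the young, adult and old library). Among the next were Rtp4 (0.280), Rsad2 (0.269), Oasl2 (0.252), Ly6a (0.232), Bst2 (0.231), Iigp1 (0.216), Ifitm3 (0.210) and Irgm1 (0.192). Of these, Ly6a alone was on none of the interferon lists. The median over all genes was -0.0015 and the 95 percentile 0.0496, and 40 genes reached 0.1. Between members r was highest for Ifit1 and Ifit3 in the young and old libraries, at 0.319 and 0.380, with 0.354 in the adult, where Ifit3 and Ifit3b, which may share reads, reached 0.374. Counts are sparse and cells share a library, so these values rank genes and show no more.

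Across the 24 points of class and library, the genes most like the IFIT sum mixed ISGs with other genes, among which Flt1 alone was on the endothelial marker list. On the scale of log2(CPM + 10), Lgals3bp led with r = 0.977 among 12698 genes, followed by Irf9 (0.966), Glmp (0.963), Hdac7 (0.961), Psmb8 (0.960), Oasl2 (0.957), the VEGF receptor gene Flt1 (0.953), Reck (0.953), F11r (0.949) and Ptprj (0.948). With a pseudocount of 1 CPM, 5 of the 10 were the same. The points share classes and libraries, and the difference between endothelial and neural cells spans most of their range.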

How the data were processed

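The deposited files hold UMI counts for each gene and barcode. Per the labels and the processing notes of the submitters, the authors made these counts with Cell Ranger 6.1.2 on mm10, and how reads that fit several genes were handled is not given in the sources used here. Cells with 500 to 6000 genes and 1 to 20% mitochondrial UMIs were kept. Scrublet (scanpy 1.11.5) called 0.467 to 0.861% of these as doublets, which were removed, so undetected doublets remain possible in mixed droplets. Cells were clustered with Seurat 5.3.0 in R 4.3.3 (2000 variable genes, 842 listed genes that include the interferon genes left out, 30 components, resolution 0.5). Class names came from marker lists, with thresholds set after the clusters were seen.

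UMIs were summed per class and library in Python 3.11.15 (numpy 2.4.6, scipy 1.17.1). Intervals are 95% exact Poisson (levels), exact conditional binomial (ratios) or Clopper-Pearson (shares) and take UMIs or cells as independent. For 0 counts the level of 3 counts is given. These steps were tested on simulated counts, drawn as independent, so the gathering of IFIT UMIs in some cells was not part of that test. With 1 library an age, no p-value was computed and library, batch and age cannot be told apart.

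Genes named were the members, up to 3 of the highest and 3 of the lowest ratios of each pathway list, central genes of the pathway (among them Irf7, Isg15, Stat2, Irf9, Ddx58 and Ifih1), the 10 genes most like the members by each measure, and others of the lists as examples. Members, lists and tests were chosen with earlier results of these data known. Mx1 and Mx2 were not analysed here, and 1 gene that the rule names is not reported here. Alternatives are given under the dependence on processing.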

Additional observations from a re-analysis of the deposited data

Results flagged for a closer look

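IFIT transcripts were also found in droplets outside the compared classes, each at a level above that of rods. B cells had 259 CPM in the young library (11 cells, 16 UMIs), 35.8 in the adult (76 cells, 11 UMIs) and 187 in the old (57 cells, 46 UMIs). An unnamed cluster, number 15, had 576, 171 and 134 CPM from 71, 15 and 11 UMIs in 21, 31 and 38 cells. Droplets with endothelial and erythroid markers had 104 CPM in the young library, 226 in the adult and 256 in the old. Droplets with Müller and pigment epithelial markers had 251 CPM in the old library, where 55 of them lay. Droplets with T cell and microglial markers had 187 CPM in the adult library but 35.8 in the old. Unnamed cluster 22 had 49.4 CPM in the adult library. None of these classes held 30 cells in every library, so no ages were compared in them.

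Some ratios lay on the other side of 1 from that of endothelial cells, and these differences were not tested. For Ifit2 in Müller glia the old-to-young ratio was 0.929 and the adult-to-young ratio 0.844. The adult-to-young ratio of the summed genes was 0.825 in bipolar cells. In mixed droplets the adult-to-young ratios were 0.978 for Ifit1, 0.864 for Ifit2, 0.936 for Ifit3b and 0.977 for the sum, and in pericytes they were 0.987 for Ifit1, 0.673 for Ifit3 and 0.740 for the sum. The endothelial cluster led by Gm26917 had an old-to-young ratio of 0.933, against 2.25 and 1.95 in the other endothelial clusters. Ratios on fewer counts went both ways. Intervals lay above 1 for, among others, the adult-to-young ratio of the sum in smooth muscle at 11.7 (2.91 to 102, 24 and 2 UMIs). The old-to-young ratio of Ifit3 in bipolar cells was another, at 5.13 (1.41 to 28.1, 13 and 3 UMIs). On the other side, 4 had intervals below 1. These were the old-to-adult ratio of the sum in smooth muscle at 0.402 (0.178 to 0.853, 11 and 24 UMIs), the adult-to-young ratio of Ifit2 in bipolar cells at 0.358 (0.126 to 0.898, 7 and 18 UMIs), and Ifit2 in the cluster led by Gm26917 at 0.279 (0.0655 to 0.920) old to young and 0.147 (0.0363 to 0.448) old to adult, from 12, 18 and 4 UMIs in age order.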

How the results depend on the processing

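The ratios recomputed were those of the summed genes in endothelial cells, mixed droplets, Müller glia, pericytes and bipolar cells, and of the members in endothelial cells. Members in other classes were not recomputed. Of 150 alternative values, 139 lay within the counting interval of the value reported. A turn of direction was checked only for ratios past the fold, and none of those turned. The Müller and pericyte sums, short of the fold, did fall below 1 in some settings. The endothelial old-to-young ratio of the summed genes ran from 1.95 to 2.21 over 11 alternatives, that of Ifit1 from 1.84 to 2.05, of Ifit3 from 2.27 to 2.72 and of Ifit3b from 2.04 to 2.76, where 2.04 was the mean of the cells' own CPM. The endothelial adult-to-young ratio was 1.28 as the expectation over all draws of 2000 UMIs. Mixed droplets had an old-to-young ratio of 1.96 after thinning to 2000 UMIs and 2.68 with cells placed by their own markers, and an adult-to-young ratio of 1.14 without the 5 cells with most IFIT UMIs. In Müller glia thinning turned the old-to-young ratio to 0.934 and gave 0.828 (adult to young), and placing cells by their own markers gave 0.744 (adult to young). In pericytes the old-to-young ratio was 0.591 with cells placed by their own markers, 2.25 without the 5 cells with most IFIT UMIs and 0.995 expected over all draws. The causes were not tested. Shares of endothelial cells depend on depth by construction. With all UMIs 57.3, 54.2 and 72.5% of young, adult and old cells had an IFIT UMI and 31.4, 34.7 and 50.9% had 2 or more members. At 1000 UMIs a cell these were 25.2, 26.9 and 37.9%, and 5.03, 9.11 and 9.69%. The expectations over all draws of 1000 UMIs were 23.5, 24.97 and 37.6%, and 5.71, 6.77 and 12.7%. With at least 100 UMIs a gene or a fold 25% above 1 in place of 1.5, the number of all genes past the fold upward went from 603 to 246 or 1618 and downward from 412 to 112 or 1236, RNA sensors upward from 2 to 1 or 4 and downward from 1 to 0 with at least 100 UMIs. At that lower fold, members past it went from 3 to 4, Ifit2 included, for old to young and for old to adult, negative regulators past it went from 2 to 4 and dissociation genes upward from 0 to 2. Of the 10 genes most like the IFIT sum over class and age, 5 were shared with a pseudocount of 1 CPM. Expectations over draws and fits without the clusters of low UMI count were added after the data were seen. No paired analysis was possible because each age is 1 library, which also leaves no replicate to leave out.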
